A study of Mus musculus with 8 samples.

Results

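Clade B serpins are the intracellular branch of the serpin family, encoded in the mouse by genes whose symbols begin with Serpinb. All such symbols in the study's expression tables were taken, and transcripts of a symbol were summed, which gave 27 genes with 35 transcripts out of 21882 genes with 27641 transcripts. They lie in 2 clusters (mouse build mm9). The chromosome 1 cluster spans 108757757 to 109505555 and holds 12 genes, in the order Serpinb5, Serpinb12, Serpinb13, Serpinb3a, Serpinb3d, Serpinb3b, Serpinb3c, Serpinb11, Serpinb7, Serpinb2, Serpinb10-ps and Serpinb8. The chromosome 13 cluster spans 32933961 to 34094618 and holds 15 genes of the Serpinb1, Serpinb6 and Serpinb9 groups. By position the only other gene in the tables that overlaps a member is Nqo2, which overlaps Serpinb6a.

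As background, a serpin presents a flexible reactive centre loop as bait to a protease. An inhibitory serpin is cleaved in that loop, changes shape and traps the protease covalently, while a few members, such as Serpinb5 (maspin), are not thought to inhibit proteases. Clade B members lack a classical secretion signal and act largely inside cells, and in skin many are made by keratinocytes, where loss of SERPINB7 or SERPINB8 causes human disorders of the outer skin layer.

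RNA was sequenced from C57BL/6 mouse embryos carrying alleles of Cyp26b1, the gene of a retinoic acid-degrading cytochrome P450. Whole skin of embryonic day 16.5 (E16.5) was compared between a group labelled Cyp26b1-/- and wild type, with 2 libraries in each. At embryonic day 18.5 (E18.5), 1 library labelled En1cre;Cyp26b1f/- was compared with 1 control library labelled Cyp26b1f/+, separately for dermis and for epidermis. The titles number the control libraries 1 (dermis) and 6 (epidermis) and the mutant libraries 7 (dermis) and 9 (epidermis). The 2 tissues may therefore come from different embryos. En1cre recombines in cells with a history of Engrailed 1 expression. Because the mutant allele pair is f/- and the control pair f/+, the E18.5 mutant also had 1 intact allele fewer in cells that never expressed Cre. The control label names no En1cre, so the groups also differ in the presence of En1cre itself. These differences cannot be told apart. The labels do not say whether the E16.5 libraries came from separate embryos, so p-values describe only these libraries.

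Levels are FPKM, sequenced fragments divided by transcript length and library size, so genes can be compared per length within a table. Each E16.5 column pools 2 libraries, so no spread between them could be given, and read depth is unknown. Cyp26b1 itself was not lower in libraries labelled mutant: it stood at 34.95 FPKM in wild-type and 58.16 FPKM in labelled-null skin, at 54.16 and 101.7 FPKM in control and mutant dermis, and at 4.97 and 13.68 FPKM in epidermis, and the labels do not state which exons the alleles lack. Most genes were higher in the E16.5 mutant column, with a median log2 fold of 0.43 over 14154 genes with at least 1 FPKM, so folds here are log2((mutant FPKM + 1)/(control FPKM + 1)) minus that median. The medians were 0.12 in dermis (13398 genes) and -0.18 in epidermis (11362 genes). The pseudocount of 1 understates differences of low genes. At E16.5, "rose" and "fell" mean that the deposited Cuffdiff statistic, recomputed about the median deposited fold, gave a Benjamini-Hochberg adjusted p below 0.05 for at least 1 transcript of the gene and none the other way.

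The tissue labels were compared with marker genes. The library labelled control dermis held 6265 FPKM of Krt5, the keratin of basal keratinocytes, against 2634 FPKM in the control epidermis library, and the epidermis libraries held the fibroblast collagen Col1a1 at 148.8 FPKM in the control and 27.73 FPKM in the mutant. The labelled dermis therefore contained keratinocyte transcripts. These 2 tissues come from tables that were normalised separately. Lens genes, which skin should lack, were high in labelled-null E16.5 skin: Cryaa went from 3.75 to 476.5 FPKM, and 6 of 7 lens markers rose. The part of such tissue in the serpin values was not tested.

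In wild-type E16.5 skin the chromosome 1 cluster gave most of the clade B transcript. It summed to 615.5 FPKM, against 134.7 FPKM for the chromosome 13 cluster, which made up 17.95% of the total of 750.2 FPKM. Serpinb5 (155.1 FPKM) and Serpinb12 (150.9 FPKM), an inhibitor of trypsin-like proteases, were the highest members, followed by Serpinb7 (89.36 FPKM) and Serpinb3b (67.26 FPKM). On chromosome 13, Serpinb6a (61.03 FPKM), an inhibitor of cathepsin G, and Serpinb1a (43.4 FPKM), an inhibitor of neutrophil elastase, led. At the low end, 5 members (Serpinb9c, Serpinb9d, Serpinb9e, Serpinb9f and Serpinb9g) were listed at 0 in both skin columns. Serpinb9d to Serpinb9g share between 28.289% and 78.476% of their 50-base windows with other genes, so their reads may be hard to assign. How such reads were handled, and how long reads were, is not stated in the sources used.

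The total over the clade stayed near its wild-type value in labelled-null skin, at 757.8 FPKM, with 616.5 FPKM from chromosome 1 and 141.3 FPKM from chromosome 13, before any correction for the shift of the median. Single members moved in both directions; in whole tissue, fewer cells of a type and less RNA per cell cannot be told apart. Among 21 members with a tested transcript, 3 rose (14.3%; 8.26% of 16263 tested genes rose) and 9 fell (42.9%; 10.03% of tested genes fell). The median fold of the 18 members with at least 1 FPKM was -0.23, where the median gene is 0 by construction. The 3 that rose were all on chromosome 1, where 5 of 12 tested members fell. On chromosome 13, 4 of 9 tested members fell and none rose, also at an unadjusted p below 0.05 in the recomputed Cuffdiff statistic. Judged by the transcript with the highest mean FPKM alone, a choice made after seeing the data, 2 members rose and 7 fell. In the authors' deposited table, which is not centred, 7 members were called higher (33.3%; 54.7% of tested genes) and 5 lower (23.8%; 3.44% of tested genes). There, 3 of the 9 tested chromosome 13 members were called higher (33.3%), Serpinb6a among them, and 1 lower (11.1%). The one-way fall on chromosome 13 thus depended on the centring.

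**Figure D1:**
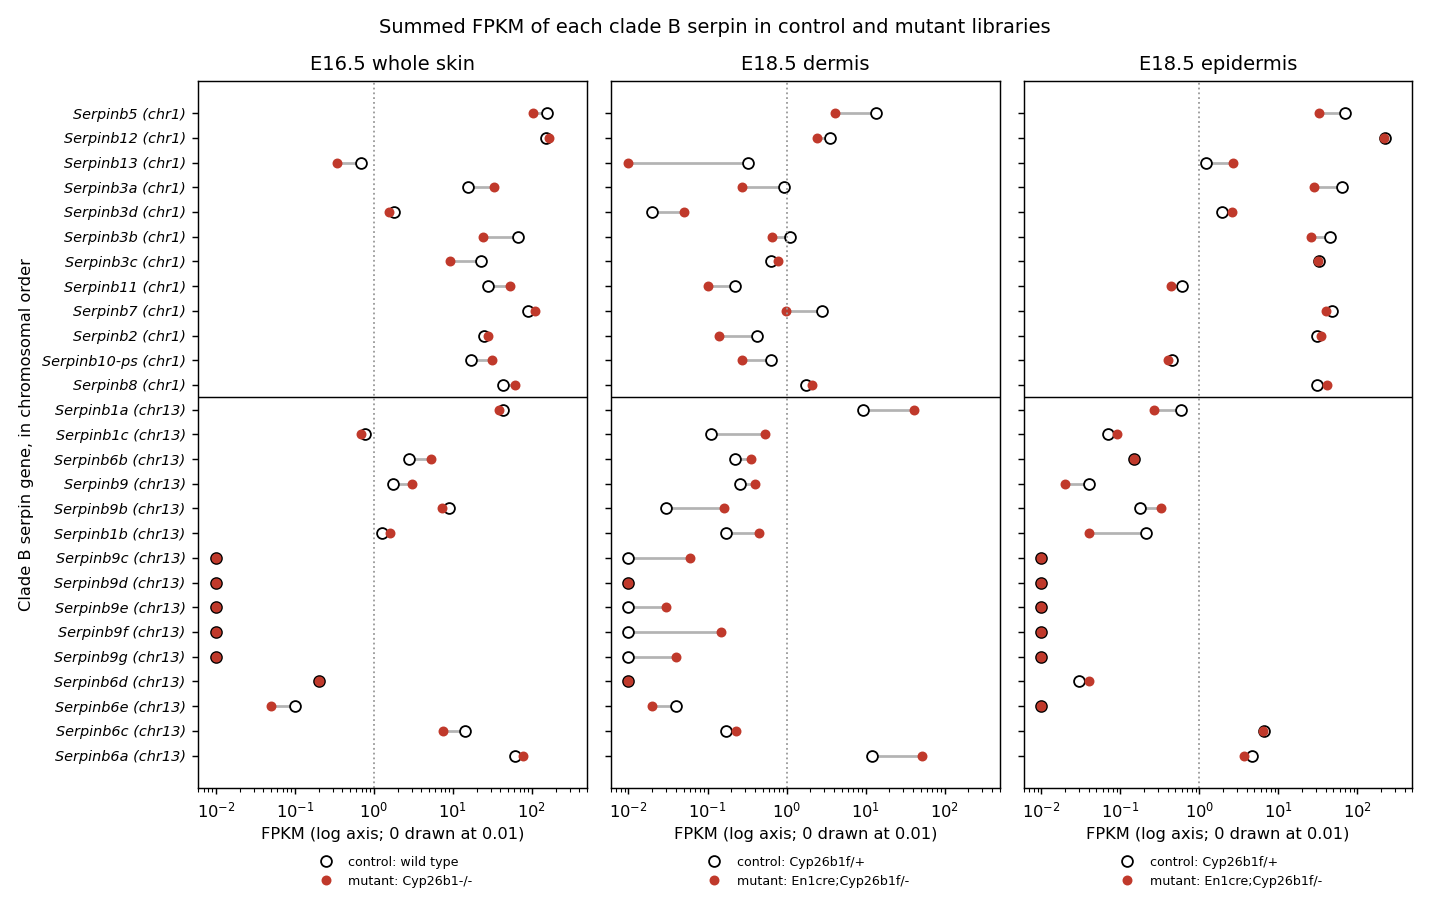
FPKM of the 27 clade B serpins (rows, chromosomal order, chromosome 1 above the line) on a log axis, with values of 0 drawn at 0.01, in E16.5 skin (2 pooled libraries per column), E18.5 dermis and E18.5 epidermis (1 library each). Open circles are controls and filled circles mutants; Serpinb5, Serpinb12 and Serpinb7 of chromosome 1 stand near the top in skin and epidermis while Serpinb13 and Serpinb3d stay low, and Serpinb1a and Serpinb6a stand above the others in mutant dermis.

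The largest differences at E16.5 were in the Serpinb3 copies, a run of 4 adjacent minus-strand genes that are the mouse counterparts of human SERPINB3 and SERPINB4, inhibitors of cysteine cathepsins and of serine proteases. Their coding sequences (GENCODE vM1, mm9) are 92.61% identical between Serpinb3a and Serpinb3b, 91.47% between Serpinb3a and Serpinb3c, and 93.37% between Serpinb3b and Serpinb3c. Serpinb3d is 85.62% to 88.57% identical to the others. In the alignment of all 4, 221 of 1161 ungapped positions vary (19.0%), and the most variable 60 bases hold 32 varying positions. That stretch, near the end of the coding sequence where serpins carry the reactive centre loop, runs from coding base 1010 to 1069 in Serpinb3a, Serpinb3b and Serpinb3c and from 1016 to 1075 in Serpinb3d. It is shown because it holds the most positions that vary among the 4 copies. Serpinb3a and Serpinb3b share the same base at most of these positions, so the stretch separates that pair poorly. Capitals mark positions that differ among the 4.
Serpinb3a: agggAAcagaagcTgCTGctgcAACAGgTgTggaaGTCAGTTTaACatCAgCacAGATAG
Serpinb3b: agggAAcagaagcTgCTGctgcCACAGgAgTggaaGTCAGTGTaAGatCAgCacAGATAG
Serpinb3c: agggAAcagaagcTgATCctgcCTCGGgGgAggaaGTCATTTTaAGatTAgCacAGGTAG
Serpinb3d: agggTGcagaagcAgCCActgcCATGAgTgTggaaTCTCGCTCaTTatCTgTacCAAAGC

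These copies moved apart in labelled-null skin. Serpinb3b went from 67.26 to 24.05 FPKM and Serpinb3c from 22.74 to 9.23 FPKM, while Serpinb3a went from 15.59 to 32.97 FPKM. Serpinb3b and Serpinb3c fell and Serpinb3a rose, so the order of the copies changed. The authors' deposited fold minus the median was -1.96 for Serpinb3b (SE 0.16 implied by their statistic, recomputed Cuffdiff adjusted p = 5.9e-34), -1.77 for Serpinb3c (SE 0.19, adjusted p = 5.74e-18) and 0.61 for Serpinb3a (SE 0.16, adjusted p = 0.00199). Serpinb3d, the least expressed copy, stood at 1.80 and 1.56 FPKM and was not called (adjusted p = 0.272 from the authors' recentred statistic).

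As a share of the 4 copies, Serpinb3a made up 14.52% in wild-type skin and 48.62% in labelled-null skin, and Serpinb3b 62.63% and 35.47%. The ratio of Serpinb3a to Serpinb3b, which no scaling of the libraries can alter, was 0.2318 in wild type and 1.371 in the mutant. In the authors' deposited table the log2 fold of Serpinb3a exceeded that of Serpinb3b by 2.56 (SE 0.22) and that of Serpinb3c by 2.38 (SE 0.25), taking the SEs as independent, whereas Serpinb3b and Serpinb3c differed by -0.18 (SE 0.25). Of their 50-base windows, 6.454% in Serpinb3a, 14.339% in Serpinb3b and 9.441% in Serpinb3c occur without a mismatch in another gene. Most of each transcript is thus distinct at that length for exact matches. Whether reads placed with mismatches were shared between the copies was not tested.

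**Figure D2:**
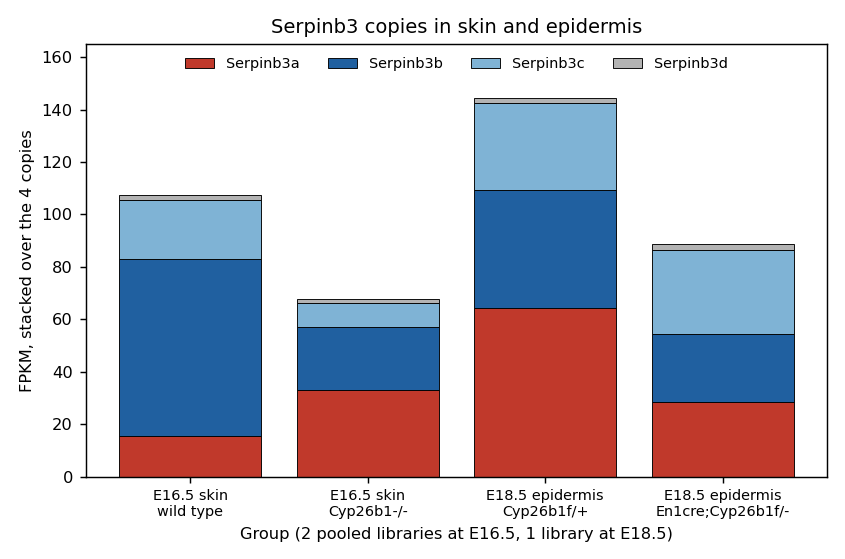
FPKM of Serpinb3a, Serpinb3b, Serpinb3c and Serpinb3d, stacked per group (2 pooled libraries per bar at E16.5, 1 library per bar at E18.5, no error bars possible). Serpinb3a is 14.52% of the wild-type skin bar and 48.62% of the labelled-null bar, and 44.52% and 31.83% of the epidermis bars; skin and epidermis come from separately normalised tables.

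Because these neighbouring copies moved in opposite directions, the 250 bases before each gene's start are shown (RefSeq, GRCm38.p6, minus strand): chr1:107052304-107052553 for Serpinb3a, chr1:107161115-107161364 for Serpinb3b, chr1:107278372-107278621 for Serpinb3c and chr1:107083481-107083730 for Serpinb3d. Capitals mark matches, on either strand, to TATAAA, the core of the TATA box, and to AGGTCA, the half-site that retinoic acid receptors and other nuclear receptors read.
Serpinb3a: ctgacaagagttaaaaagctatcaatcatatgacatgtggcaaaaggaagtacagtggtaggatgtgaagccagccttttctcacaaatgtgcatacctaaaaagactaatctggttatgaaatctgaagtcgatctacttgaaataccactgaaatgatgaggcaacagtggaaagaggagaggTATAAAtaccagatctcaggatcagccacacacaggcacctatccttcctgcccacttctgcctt
Serpinb3b: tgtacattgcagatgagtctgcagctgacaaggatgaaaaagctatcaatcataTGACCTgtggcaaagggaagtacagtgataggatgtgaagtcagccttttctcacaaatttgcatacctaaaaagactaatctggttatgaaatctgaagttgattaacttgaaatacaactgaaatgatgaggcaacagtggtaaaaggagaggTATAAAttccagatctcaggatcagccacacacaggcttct
Serpinb3c: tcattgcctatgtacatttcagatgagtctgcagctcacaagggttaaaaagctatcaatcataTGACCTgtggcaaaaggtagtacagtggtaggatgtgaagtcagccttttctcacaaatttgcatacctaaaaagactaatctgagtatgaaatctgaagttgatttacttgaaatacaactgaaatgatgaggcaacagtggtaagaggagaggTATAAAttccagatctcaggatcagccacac
Serpinb3d: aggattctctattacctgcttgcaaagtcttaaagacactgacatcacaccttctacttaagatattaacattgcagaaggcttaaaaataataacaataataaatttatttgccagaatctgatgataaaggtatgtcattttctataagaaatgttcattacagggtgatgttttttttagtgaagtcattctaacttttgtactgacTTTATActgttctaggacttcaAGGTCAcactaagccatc

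The upstream sequences of Serpinb3a, Serpinb3b and Serpinb3c are close copies, 92.5% identical for Serpinb3a and Serpinb3b, 94.0% for Serpinb3a and Serpinb3c, and 95.4% for Serpinb3b and Serpinb3c over aligned bases. That of Serpinb3d is 45.8% to 49.3% identical to the others. All 4 hold a match to TATAAA, on the gene's strand in Serpinb3a, Serpinb3b and Serpinb3c. In Serpinb3d it lies on the opposite strand and reads TTTATA on the gene's strand. One match to AGGTCA, reading TGACCT on the gene's strand, begins 196 bases before the start in Serpinb3b and 186 bases before it in Serpinb3c, and the 6 aligned bases in Serpinb3a are TGACAT. Serpinb3d, which was not called, also holds AGGTCA. A match is a description of letters and not a binding site. Over 32851 promoters of 300 bases (250 before the start and 50 after), searched on both strands, TATAAA occurred in 13.616%, AGGTCA in 16.255% and TGAGTCA, the AP-1 motif, in 5.202%. In the promoter table, which held 24 of the 27 members, 32 promoters carried a Serpinb symbol, and TATAAA occurred in 11 of them, AGGTCA in 14 and TGAGTCA in 2 (Serpinb7 and Serpinb8). The genes with AGGTCA were Serpinb12, Serpinb1c, Serpinb3b, Serpinb3c, Serpinb3d, Serpinb6d, Serpinb6e and Serpinb9c to Serpinb9h. Of these, Serpinb9c to Serpinb9g were listed at 0 FPKM in both skin columns, and Serpinb9h is not among the 27 members. Many are related copies, so the counts were not tested against the share of all promoters. Direct repeats with 5 bases between the half-sites, the classical form bound by retinoic acid receptors, were searched for with either AGGTCA or AGTTCA as the half-site; they occurred in 0.009% and 0.024% of all promoters and in none of the 32.

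Of the other chromosome 1 members, Serpinb5 fell from 155.1 to 103.0 FPKM, with the authors' fold minus the median at -1.06 (SE 0.15, recomputed Cuffdiff adjusted p = 1.51e-11). Serpinb5 thereby dropped from the highest to the third highest member. Serpinb11, whose mouse protein inhibits trypsin-like proteases, went from 27.75 to 53.35 FPKM and rose (adjusted p = 0.0107 from the authors' recentred statistic), a call that was lost when genes of like GC content set the centre. Serpinb13, an inhibitor of cathepsins L and K, was below 1 FPKM in both columns, at 0.69 and 0.34 FPKM, and fell (adjusted p = 0.0266 from the authors' recentred statistic).

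For 2 chromosome 1 members the call rested on a minor transcript. Serpinb12 was at 150.9 and 162.5 FPKM in sum, a fold of -0.32 relative to the median gene that turns to 0.11 on the authors' scaling. By the authors' recentred statistic it counted as fallen through NM_027971, at 2.76 and 1.25 FPKM (adjusted p = 0.00241), while its main transcript NM_001199213 was at 148.11 and 161.24 FPKM (adjusted p = 0.0725). Serpinb10-ps, annotated as a pseudogene by its symbol, was at 17.15 and 31.34 FPKM and by the authors' recentred statistic counted as risen through NM_001160307, at 2.42 and 6.20 FPKM (adjusted p = 0.00344), while NM_198028 was at 14.73 and 25.14 FPKM (adjusted p = 0.158).

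The remaining chromosome 1 members were not called. Serpinb7 (megsin) stood at 89.36 and 108.5 FPKM, a fold of -0.15 that becomes 0.28 on the authors' scaling. Serpinb2 (plasminogen activator inhibitor 2, which inhibits urokinase) stood at 24.66 and 27.97 FPKM, a fold of -0.25 that becomes 0.18. Serpinb8, which inhibits furin in biochemical assays, stood at 42.54 and 61.65 FPKM, a fold of 0.10.

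On chromosome 13, Serpinb6c fell from 14.41 to 7.43 FPKM, with the authors' fold minus the median at -1.43 (SE 0.23, recomputed Cuffdiff adjusted p = 1.82e-08). It was the only chromosome 13 member past 2-fold. Serpinb1a fell from 43.4 to 38.58 FPKM (adjusted p = 0.000182) and Serpinb9b from 8.96 to 7.39 FPKM (adjusted p = 0.00296, both from the authors' recentred statistic). These calls are relative to the median gene, and the authors' deposited table called neither gene.

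Serpinb6a, with 4 listed transcripts, was at 61.03 and 76.94 FPKM in sum, a fold of -0.10 that turns to 0.33 on the authors' scaling. By the authors' recentred statistic it counted as fallen through NR_028309, at 8.86 and 7.58 FPKM (adjusted p = 0.0403), while the main transcript NM_009254 was at 50.41 and 67.68 FPKM (adjusted p = 0.877). On the authors' own scaling Serpinb6a was called higher. Nqo2, which overlaps it, was at 4.45 and 6.77 FPKM. Serpinb6b (2.81 and 5.30 FPKM) and Serpinb9 (1.75 and 3.06 FPKM), which inhibits granzyme B, were not called by the recomputed statistic. Serpinb1b, Serpinb1c and Serpinb6d were below 2 FPKM and not called, and Serpinb6e, at 0.10 and 0.05 FPKM, was not tested.

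By size alone, no member was 2-fold higher at E16.5 (1.67% of 14154 genes were) and 4 of 18 were 2-fold lower (22.2%; 2.85% of genes), namely Serpinb5, Serpinb3b, Serpinb3c and Serpinb6c. Members are richer in A and T than most genes, with a median GC content of 42.0% against 50.7%, and genes of like GC content had a median fold of 0.10, so the members' GC content lay on the side of higher folds.

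**Figure D3:**
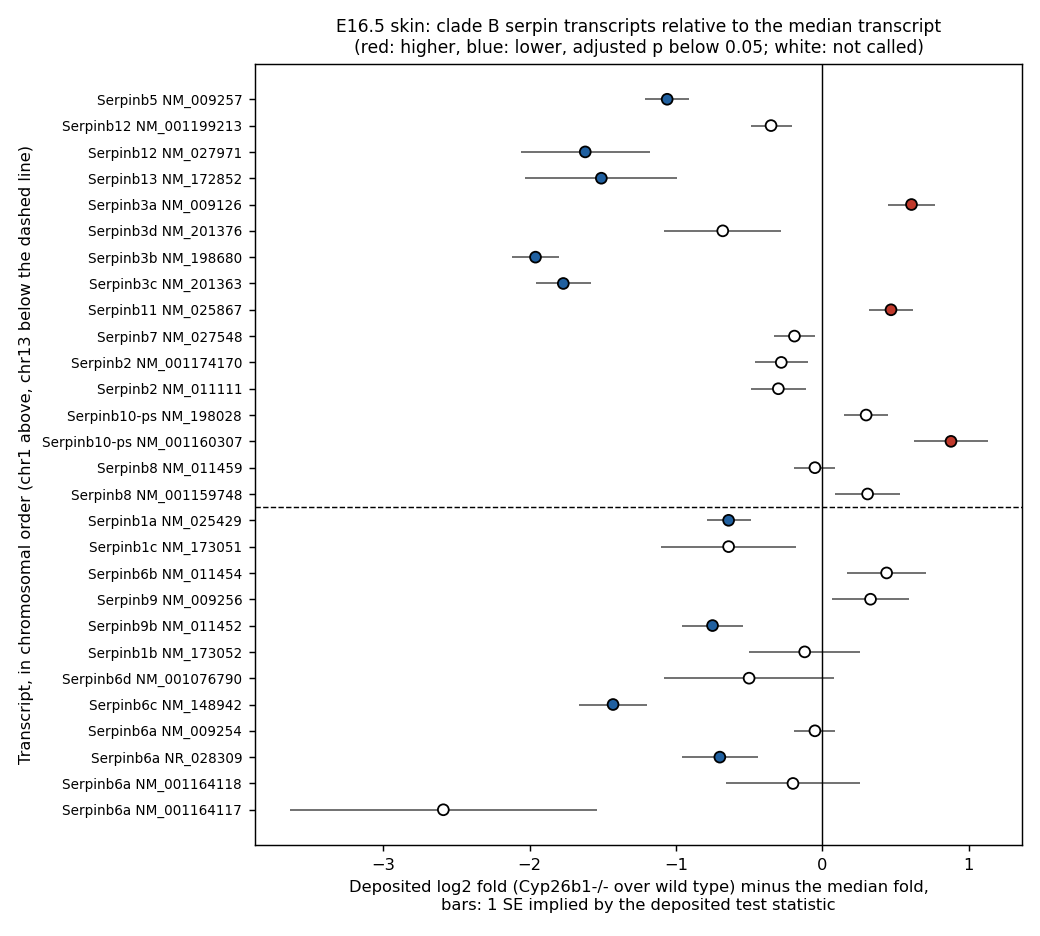
Each point is 1 tested clade B serpin transcript in E16.5 skin; the x axis is the authors' deposited log2 fold (Cyp26b1-/- over wild type) minus the median fold, and bars are 1 SE implied by the deposited statistic. Red points rose and blue points fell at an adjusted p below 0.05; Serpinb3b (-1.96) and Serpinb3c (-1.77) lie far from Serpinb3a (0.61).

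Markers of keratinocyte layers and of other cell types were also called in these libraries, where 8.26% of all tested genes rose and 10.03% fell. The share of all genes at an unadjusted p is not given here, so marker counts at that threshold have no background. Of the granular and cornified markers 5 of 9 fell, or 7 at an unadjusted p below 0.05 (Klk7 from 127.4 to 6.0 FPKM, Ivl from 193.9 to 35.68 FPKM). None rose in the recomputed Cuffdiff statistic by either measure, and in their sum they went from 5539 to 4828 FPKM. Tgm1 was the 1 of these 9 above the median gene, at 112.7 and 263.4 FPKM (fold 0.79), and was not called. Of the basal markers 1 of 6 fell, Krt14, from 734.1 to 425.8 FPKM, and 5 of 6 were lower at an unadjusted p below 0.05, with none rising by either measure. Of the periderm and mucosal markers 6 of 10 rose and 4 fell, with Krt4 going from 54.97 to 294.9 FPKM. Of the spinous markers 3 of 6 tested fell and none rose. Among fibroblast markers 2 of 4 tested fell and none rose, and the folds were small, -0.34 for Twist2 and -0.22 for Pdgfra. Of the erythroid markers 2 of 5 rose and none fell. Among leukocyte markers 1 of 10 fell, near the share of all tested genes. It was Mpo, at 0.60 and 0.16 FPKM. At an unadjusted p below 0.05 in the recomputed Cuffdiff statistic 2 leukocyte markers were lower, and none rose by either measure. The part of these markers in the serpin differences was not tested.

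Among proteases that clade B serpins are known to inhibit in biochemical assays, or their relatives, 2 of 14 tested at E16.5 rose (14.3%; 8.26% of all tested genes) and 3 fell (21.4%; 10.03%). Casp1, the interleukin-1-processing caspase, rose from 4.65 to 20.75 FPKM and Plau (urokinase) from 15.32 to 28.7 FPKM. Furin, a proprotein convertase, fell from 40.81 to 36.28 FPKM and Cma1, the mast cell chymase, from 429.4 to 391.3 FPKM, both relative to the median. Of skin protease inhibitors outside the serpins, 4 of 12 tested rose (33.3%) and 3 fell (25.0%), among them Cst6, an inhibitor of cathepsins, from 12.97 to 4.28 FPKM, and Slpi, an elastase inhibitor, which rose from 1.31 to 8.63 FPKM.

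At E18.5 most expressed chromosome 1 members were higher in control epidermis than in control dermis. In control epidermis the clade summed to 566.2 FPKM, of which chromosome 13 gave 2.216%, and in control dermis to 48.68 FPKM, of which it gave 46.51%. Of 10 chromosome 1 members with at least 1 FPKM in either control, 9 were more than 2-fold higher in epidermis and none was 2-fold lower, on the authors' scaling (15.3% of 13130 genes were higher and 32.7% lower, with a median log2 difference of -0.41). Serpinb12 was at 226.2 FPKM in control epidermis and 3.57 FPKM in control dermis, and Serpinb3a at 64.26 and 0.94 FPKM. On chromosome 13 the direction depended on the gene: Serpinb6c was at 6.64 FPKM in epidermis and 0.17 FPKM in dermis, whereas Serpinb1a was at 0.59 and 9.4 FPKM and Serpinb6a at 4.64 and 12.22 FPKM. Each value is from 1 library, the tables were normalised separately, and the 2 tissues may come from different embryos. The control dermis held more Krt5 than the control epidermis did, while Serpinb12, Serpinb2 (0.42 against 31.09 FPKM) and Serpinb3a were low in it.

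In dermis, 7 of the 27 members had at least 1 FPKM in either library. With 1 library per group there is no test, and differences were counted past 2-fold relative to the median gene. Higher in the mutant library were 2 of 7 (28.6%; 14.0% of 13398 genes were), both on chromosome 13, and lower were 2 of 7 (28.6%; 13.9% of genes), both on chromosome 1. Serpinb1a was at 9.4 FPKM in the control and 41.3 FPKM in the mutant, a fold of 1.90. Serpinb6a was at 12.22 and 52.16 FPKM, a fold of 1.88. Relative to genes of like GC content they were at 1.72 and 1.54. For Serpinb6a most of the difference lay in NM_009254, at 4.81 and 40.71 FPKM, while NR_028309 was at 3.44 and 3.71 FPKM.

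The 2 lower members were Serpinb5, at 13.57 and 4.12 FPKM (fold -1.63), and Serpinb7, at 2.83 and 0.99 FPKM (fold -1.07). Relative to genes of like GC content Serpinb5 was at -1.33 and Serpinb7, no longer past 2-fold, at -0.76. Serpinb12 (3.57 and 2.46 FPKM, fold -0.52), Serpinb3b (1.10 and 0.65 FPKM, fold -0.47) and Serpinb8 (1.76 and 2.13 FPKM, fold 0.06) did not pass 2-fold. In sum, chromosome 1 members were at 26.04 and 11.95 FPKM and chromosome 13 members at 22.64 and 95.89 FPKM, so the chromosome 13 share was 46.51% in the control and 88.92% in the mutant. The other members stayed under 1 FPKM in both dermis libraries.

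Markers of other cell types differed between the same 2 dermis libraries, where 14.0% of all genes were 2-fold higher in the mutant and 13.9% lower. Of 7 basal keratinocyte markers 6 were 2-fold lower in the mutant, with a sum of 12400 FPKM in the control and 3797 FPKM in the mutant, and Krt5 was at 6265 and 1806 FPKM. Of 8 spinous markers 5 and of 9 granular markers 7 were 2-fold lower. Of 7 leukocyte markers with at least 1 FPKM 3 were 2-fold higher, the macrophage genes Lyz2 (6.12 and 43.28 FPKM), Cd68 (10.18 and 47.92 FPKM) and Csf1r (17.64 and 43.42 FPKM). The leukocyte list summed to 568.1 and 1135 FPKM, most of it from Tpsb2 (410.2 and 867.4 FPKM, fold 0.96). Cd74 was the 1 of these 7 markers below the median gene (39.18 and 28.97 FPKM, fold -0.55). The neutrophil genes S100a8 (0.25 and 0.13 FPKM), S100a9 (0.16 and 0.75 FPKM) and Mpo (0.12 and 0.05 FPKM) were below 1 FPKM in both. Of 4 fibroblast markers with usable values 3 were above the median gene and 1 was 2-fold higher, Dcn, at 53.83 and 358.4 FPKM, while Twist2 was at 387.2 and 312.2 FPKM (fold -0.43). The part of these cell types in the serpin differences was not tested.

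Most proteases of the list were higher in mutant dermis. Of 11 with at least 1 FPKM in dermis, 8 were 2-fold higher in the mutant and 1, Furin, was 2-fold lower (145 and 77.09 FPKM; 14.0% and 13.9% of genes). The cysteine cathepsins Ctsk (6.91 and 123.6 FPKM), Ctsl (15.86 and 127.4 FPKM) and Ctsh (14.3 and 67.23 FPKM) and the chymase Cma1 (130.3 and 1072 FPKM) had the largest folds. Cathepsin G, Ctsg, a target of Serpinb6a and Serpinb1a, was at 2.61 and 4.75 FPKM (fold 0.55), while 2 other neutrophil proteases that Serpinb1a inhibits were lower or near 0, Prtn3 (proteinase 3) at 1.93 and 0.68 FPKM (fold -0.93) and Elane (neutrophil elastase) at 0.13 and 0.07 FPKM.

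In epidermis, 12 of the 27 members had at least 1 FPKM, and none was past 2-fold in either direction (3.49% of 11362 genes were higher and 4.86% lower). Chromosome 1 members summed to 553.7 FPKM in the control and 460.4 FPKM in the mutant, and chromosome 13 members to 12.55 and 11.05 FPKM. Closest to the 2-fold line on the low side were Serpinb3a, at 64.26 and 28.28 FPKM (fold -0.98), and Serpinb5, at 70.39 and 33.31 FPKM (fold -0.88). On the authors' scaling both were past it, with folds of -1.16 and -1.06, and relative to genes of like GC content both were further inside it, at -0.51 and -0.41. Serpinb3b was at 45.01 and 26.11 FPKM (fold -0.58, and 0.00 relative to genes of like GC content).

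On the high side were Serpinb13, at 1.21 and 2.65 FPKM (fold 0.90, and 1.05 relative to genes of like GC content, past 2-fold), Serpinb8, at 31.18 and 41.08 FPKM (fold 0.57), and Serpinb3d, at 1.93 and 2.61 FPKM (fold 0.48). Serpinb2 summed to 31.09 and 34.91 FPKM (fold 0.34), and its transcripts differed: NM_001174170 was at 23.31 and 33.7 FPKM and NM_011111 at 7.78 and 1.21 FPKM. The other 5 members, Serpinb12, Serpinb3c, Serpinb7, Serpinb6c and Serpinb6a, had folds between -0.10 and 0.14. Of these, Serpinb12, at 226.2 and 218.9 FPKM, Serpinb3c, at 33.15 and 31.85 FPKM, and Serpinb6c, at 6.64 and 6.45 FPKM, were above the median gene and slightly below the control on the authors' scaling (-0.05, -0.06 and -0.04).

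The Serpinb3 copies differed in epidermis in another order than in E16.5 skin. Serpinb3a made up 44.52% of the 4 copies in the control and 31.83% in the mutant, Serpinb3b 31.18% and 29.39%, and Serpinb3c 22.97% and 35.85%. The ratio of Serpinb3a to Serpinb3b was 1.428 in the control and 1.083 in the mutant, so the ratio was lower in the mutant here and higher in the mutant at E16.5. In epidermis, with 1 library per group, the deposited log2 folds were -1.184 for Serpinb3a and -0.786 for Serpinb3b. The SEs implied by the authors' statistic were 0.49 and 0.48, so these 2 folds differ by less than either SE. The difference between the 2 comparisons was not tested. In dermis the 4 copies summed to 2.70 and 1.74 FPKM, too little to read shares from.

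**Figure D4:**
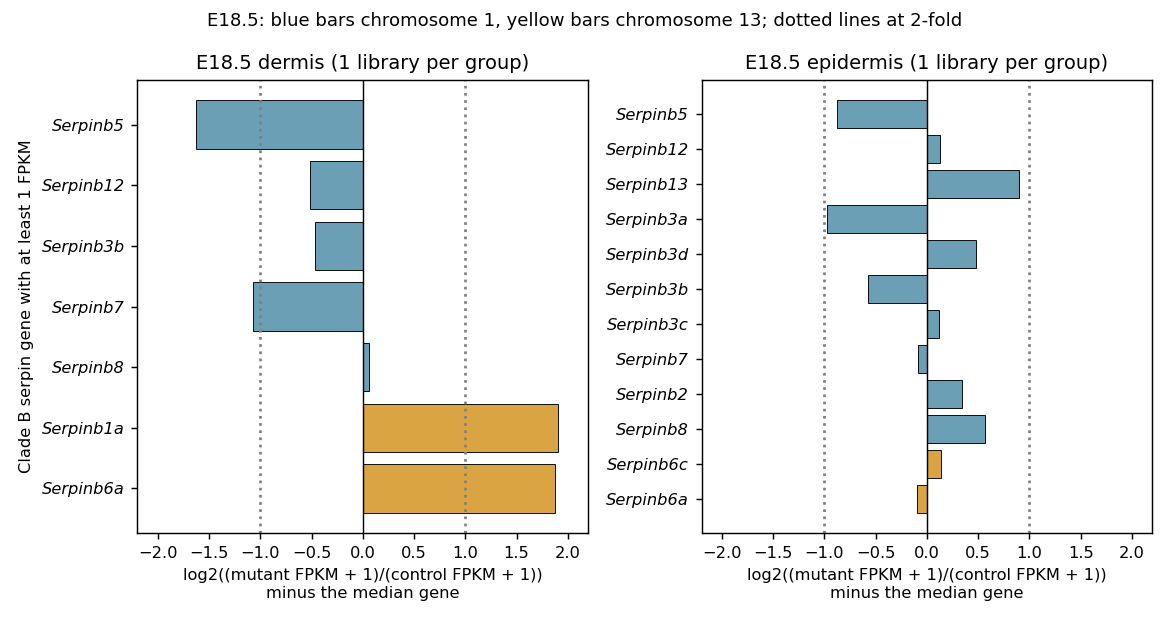
Bars are log2((mutant FPKM + 1)/(control FPKM + 1)) minus the median gene for clade B serpins with at least 1 FPKM in E18.5 dermis (7 genes) and epidermis (12 genes), 1 library per group and no error bars; blue bars are chromosome 1 and yellow bars chromosome 13. In dermis Serpinb1a (1.90) and Serpinb6a (1.88) lie past the upper dotted 2-fold line and Serpinb5 (-1.63) and Serpinb7 (-1.07) past the lower one; in epidermis none does.

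In the epidermis libraries, markers of keratinocyte layers differed too, where 3.49% of all genes were 2-fold higher in the mutant and 4.86% lower. Of 7 basal markers 5 were 2-fold lower in the mutant, with sums of 5740 and 1873 FPKM, and all 7 granular markers with usable values were above the median gene, 2 of them past 2-fold. All 5 fibroblast markers with at least 1 FPKM and 2 of 7 leukocyte markers were 2-fold lower, with sums of 325.9 and 61.88 FPKM for fibroblasts and 229.8 and 23.3 FPKM for leukocytes. Most of the difference in the leukocyte sum came from Cd74, at 172.2 and 0.59 FPKM. The other leukocyte marker past 2-fold was Tpsb2, at 8.02 and 1.05 FPKM, though all 7 were below the median gene. The part of these markers in the values of Serpinb5 and Serpinb3a was not tested. Among proteases, none of 10 was 2-fold higher and 2 were 2-fold lower, Cma1 (8.96 and 1.88 FPKM) and Ctss, a cathepsin of antigen-presenting cells (17.39 and 5.47 FPKM).

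Across the 3 comparisons, Serpinb5 was lower relative to the median gene in each, with folds of -1.01, -1.63 and -0.88, and Serpinb3b likewise, with folds of -1.87, -0.47 and -0.58. Relative to genes of like GC content, Serpinb5 was at -1.33 in dermis and -0.41 in epidermis, while Serpinb3b was at 0.11 in dermis and 0.00 in epidermis, so the lower value of Serpinb3b at E18.5 was lost. Serpinb3a was higher at E16.5 (0.61) and lower in epidermis (-0.98), or 0.49 and -0.51 relative to genes of like GC content. Serpinb1a was at -0.59 in E16.5 skin and 1.90 in dermis. Serpinb11 and Serpinb10-ps, at 27.75 and 17.15 FPKM in wild-type skin, were below 1 FPKM in all 4 E18.5 libraries.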

How the data were processed

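RNA was measured in 8 libraries of mouse skin. The submitters' processing notes name Cuffdiff 1.3.0, Cufflinks, Bowtie 0.12.7.0, TopHat 1.3.2 and build mm9; their roles and settings, strand handling and read length were not stated there. Per the file headers, the deposited tables give for each RefSeq transcript the FPKM of both groups, a test statistic (a score), a status, a log2 fold and a p-value with its q-value. The authors' FPKM are length- and library-normalised, and the E16.5 columns pool 2 libraries per group. Locus starts were taken to count from 0: after adding 1, 16 of 27 members matched the GENCODE vM1 start and without it none did.

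FPKM were summed per symbol. Folds used a pseudocount of 1, were taken where either group reached 1 FPKM, and were centred on the median gene, and genes with a failed row were left out. The SE was taken as the deposited log2 fold divided by the statistic, for E16.5 and for Serpinb3a and Serpinb3b in epidermis. At E16.5 the statistic was recomputed about the median deposited fold (0.47), with Benjamini-Hochberg adjustment over all tested transcripts. The recomputation was run on simulated data whose noise was drawn from the same SEs. That run checks the arithmetic and cannot show whether the SEs themselves are right. No p-value was computed for E18.5. The SE is that of Cuffdiff's model and not a spread between embryos. Members and lists were chosen with earlier results of these data known. The members described are all Serpinb symbols, and from each list up to 4 genes of largest fold per comparison were named. S100a8, S100a9, Mpo, Ctsg, Elane and Prtn3, Furin and Cd74 in dermis, Serpina12 in epidermis and Tgm1 in E16.5 skin were named after their values were seen. Sequences were aligned with MAFFT 7.526, and Python 3.11.15, pandas 2.3.3, numpy 2.4.6 and scipy 1.17.1 were used. Alternatives covered scaling, centring, GC content, pseudocount, filters, thresholds and the choice of transcript.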

Additional observations from a re-analysis of the deposited data

Results flagged for a closer look

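Serpinb6a had log2 folds of unlike sign in the 2 tissues of the En1cre;Cyp26b1f/- comparison, but the epidermis value is close to 0. Relative to the median gene its log2 fold was 1.88 in dermis (12.22 FPKM in the control and 52.16 FPKM in the mutant) and -0.10 in epidermis (4.64 and 3.66 FPKM). Taking only the transcript with the highest mean FPKM, the folds were 2.74 in dermis and 0.64 in epidermis, so the signs were then alike. With 1 library per group the difference between the tissues was not tested, and the tissues may come from different embryos.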

How the results depend on the processing

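Counts at E16.5 depended on centring. The authors' deposited call on their own scaling gave 7 higher members in place of 3 and 5 lower in place of 9, and on that scaling the fold of Serpinb12 turned to 0.11 and that of Serpinb6a to 0.33; removing the median shift is what differs by construction. With centring by GC content, 2 rose and 9 fell; with an adjusted p below 0.01, 2 and 7; with transcripts of at least 1 FPKM only, 3 and 8; with a centre from transcripts of at least 10 FPKM, 3 and 9. Taking only the transcript with the highest mean FPKM, 2 rose and 7 fell; this and the E18.5 counts by GC content were chosen after seeing the data. In dermis the lower members went from 2 to 1, without Serpinb7, with a pseudocount of 5, on the authors' scaling, with at least 5 FPKM and with centring by GC content, and Serpinb1a and Serpinb6a stayed the 2 higher members under every alternative tried. In epidermis 1 member (Serpinb13) was higher with a pseudocount of 0.1, at 1.5-fold or with centring by GC content, and 2 (Serpinb3a and Serpinb5) were lower on the authors' scaling, with a centre from genes of at least 10 FPKM or at 1.5-fold. Apart from scaling and threshold, the cause of these moves was not tested. Of 222 alternative values of single members' folds, 194 moved by less than 1 SE (E16.5) or 0.5 on the log2 scale (E18.5), 26 moved by more and 2, the Serpinb12 and Serpinb6a values above, reversed for a gene called at E16.5. Counting members of any size, 17 of the 222 values changed sign, 8 of them on the authors' scaling; most lay near 0, and among the others Serpinb3b in dermis went from -0.47 to 0.11 with centring by GC content, Serpinb7 in epidermis from -0.09 to 0.37, and Serpinb1b at E16.5 from -0.21 to 0.21 on the authors' scaling. Leaving out a library was not run. No paired analysis was possible because each E16.5 column joins both libraries of its group. Depth is unknown, so members near 0 FPKM cannot be called absent.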

Other observations

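Serpins of other clades also moved in E16.5 skin labelled null. Of 36 such genes 24 were tested, and 7 rose (29.2%; 8.26% of all tested genes) and 4 fell (16.7%; 10.03%) by the recomputed Cuffdiff statistic. Serpina12 (vaspin), an adipose and skin serpin that inhibits kallikrein 7, fell from 16.19 to 0.21 FPKM, while its level in E18.5 epidermis was 196.9 FPKM in the control and 306.7 FPKM in the mutant. Serpina3j rose from 0.30 to 6.82 FPKM and Serpina3h fell from 13.31 to 7.21 FPKM. In dermis Serping1, the C1 inhibitor of complement, was at 9.01 FPKM in the control and 48.21 FPKM in the mutant, and Serpinf1, pigment epithelium-derived factor, at 132.5 and 382 FPKM, each with 1 library per group.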
